A study of Mus musculus with 8 samples.

Results

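The genes described here mark the resident macrophages of the mouse spleen and the handling of iron by them. They were chosen by name as 10 genes: Spic, Vcam1, Hmox1, Slc40a1 and Cd163 for the red pulp, Marco and Cd209b for the marginal zone, Siglec1 for the metallophilic cells at its inner rim, and Cd5l and Nr1h3, which more than 1 of these macrophage types can express. Every probe set that the platform annotation gives to exactly 1 of these symbols was taken, which gave 18 probe sets for the 10 genes, out of 18193 genes with such a probe set. Spleen cell RNA of 8-week-old males was hybridised to Affymetrix mouse arrays, with 1 array for each sample. The wild type was C57Bl/6J, with 4 samples; the other 4 came from B6.SB-Yaa/J, a strain that carries the Yaa Y chromosome. No treatment was given in either group, and in both the spleens were teased through nylon screens and red cells were lysed with ammonium chloride. By the design text each sample came from 1 spleen except Yaa 3, which pooled 2; the source name of Yaa 2 also speaks of males in the plural.

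Macrophages of the red pulp take up worn-out red cells and degrade their haem. Spic, an ETS-family transcription factor, is needed for these cells to form. Haem is opened by the oxygenase that Hmox1 encodes, and the freed iron leaves the cell through ferroportin, the product of Slc40a1. Macrophages of the marginal zone and the metallophilic cells beside it instead face the blood that enters the white pulp and carry receptors for microbes and sialylated particles.

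RefSeq promoter sequences (build GRCm38.p6, 250 bases before to 50 after the start) were at hand for 6 of the 10 genes, and Vcam1, Hmox1, Slc40a1 and Siglec1 had none. The promoters of Spic, Cd163 and Cd5l are printed because the same array, Yaa 3, read highest for each of them. It did so for all 7 tested genes, so this does not set them apart, and those of Nr1h3 are not printed. That of Marco is printed because Marco had the brightest probe set among the marginal zone and metallophilic genes. Capitals mark GAGGAA on either strand, the core of the PU box that ETS factors such as SPI1 and SPIC bind.
Spic (chr10:88682974-88683273, minus strand): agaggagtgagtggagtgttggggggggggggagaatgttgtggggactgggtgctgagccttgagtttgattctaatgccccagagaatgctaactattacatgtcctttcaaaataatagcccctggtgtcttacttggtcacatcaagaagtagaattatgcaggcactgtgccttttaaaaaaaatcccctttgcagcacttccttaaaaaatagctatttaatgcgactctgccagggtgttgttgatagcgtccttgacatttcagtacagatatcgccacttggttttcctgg
Cd163 (chr6:124304401-124304700, plus strand): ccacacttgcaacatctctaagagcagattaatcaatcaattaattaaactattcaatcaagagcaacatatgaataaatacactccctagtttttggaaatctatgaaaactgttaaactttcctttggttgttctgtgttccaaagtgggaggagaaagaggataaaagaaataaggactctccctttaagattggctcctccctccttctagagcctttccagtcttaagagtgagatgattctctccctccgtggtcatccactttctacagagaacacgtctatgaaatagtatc
Cd5l (chr3:87357631-87357930, plus strand): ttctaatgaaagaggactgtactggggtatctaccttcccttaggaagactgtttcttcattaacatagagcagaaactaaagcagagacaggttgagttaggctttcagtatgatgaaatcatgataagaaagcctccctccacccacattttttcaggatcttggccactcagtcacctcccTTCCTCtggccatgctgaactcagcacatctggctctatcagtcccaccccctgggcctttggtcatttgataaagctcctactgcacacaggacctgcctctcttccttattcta
Marco (chr1:120504975-120505274, minus strand): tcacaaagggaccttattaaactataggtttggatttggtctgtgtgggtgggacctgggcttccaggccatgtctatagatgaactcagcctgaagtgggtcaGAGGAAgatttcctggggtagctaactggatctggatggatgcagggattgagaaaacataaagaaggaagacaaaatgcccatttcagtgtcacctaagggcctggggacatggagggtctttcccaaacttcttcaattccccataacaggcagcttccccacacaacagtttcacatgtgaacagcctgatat

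The GAGGAA core was present in the promoters of Cd5l, Marco and 1 of the 2 listed for Nr1h3, so in 3 of 7 member promoters, where 28.3% of all 32851 promoters of this length held it. The printed Spic and Cd163 promoters held no copy of these letters. TGACNNNGC, the core of the antioxidant response element through which haem-responsive genes are controlled, was found on either strand in 1 of the 7, that of Cd209b, against 12.4% of all promoters. A pair of AGGTCA half-sites in 1 direction and 4 bases apart, the element of the oxysterol receptor that Nr1h3 encodes, was found in 0 of the 7 and in 0.0152% of all. No match overlapped another. A match here is a description of letters in a window and not of binding.

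The signals are given as log2(signal + 16) after quantile normalization, on which a difference of 1 is a doubling of signal + 16 and a probe set with no signal stands at 4. Differences are Yaa minus wild type, and understate the change of dim probe sets. A gene with several probe sets is represented by the brightest that was tested. Over the array, limma called 1 of 22518 probe sets (0.00444%) at an adjusted p under 0.05, a probe set of Casp9 with a difference of 2.54 ± 0.18 (SE; adjusted p = 0.00413); 1066 (4.73%) had an unadjusted p under 0.05. The labels give the samples of a group as numbered replicates, and they were treated as coming from separate animals.

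The arrays Yaa 2 and Yaa 3 differed most from the rest. On the first principal component, with 56.8% of the variance, they lay at 68.8 and -92.4 and the other 6 between -18.4 and 20. B cell markers averaged 5.36 over 8 tested genes in Yaa 3 and 10.10 to 10.85 in the other 7 arrays, and T cell markers 5.30 against 8.37 to 9.41. Erythroid markers averaged 9.89 over 9 tested genes in Yaa 2 and 11.63 to 12.05 elsewhere. Outside the member list, 20 of 21 measured splenic macrophage genes passed the filter on low signals. Among them Adgre1, which encodes F4/80, read 8.07 to 9.70 and Csf1r, the receptor for the macrophage growth factor, 10.91 to 12.51. Of 6 measured liver and pancreas markers, 0 passed the filter on low signals. In these bulk samples a change in the number of macrophages, a change in their share as other cells vary, and a change in RNA per macrophage cannot be told apart.

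limma called none of the tested member genes different between Yaa and wild type. Of the 10 genes, 7 passed the filter, and 6 of these had a higher mean in Yaa and 1, Slc40a1, a lower one. Their differences ran from -0.14 to 0.37 with a median of 0.14, beside a median of -0.02 over the 10340 genes tested. The split of 6 higher and 1 lower became 2 and 5 without Yaa 3, 7 and 0 without Yaa 2, and 3 and 4 both with array weights and with the values as deposited. As deposited, the median over all tested probe sets was itself -0.20. Relative to it Slc40a1, at -0.31, lay below, Cd163 at it, and the others above. Adjusted over all probe sets, limma's p ran from 0.997 to 1 for the 7, and 0 had an unadjusted p under 0.05. The groups overlapped for 7 of 7, where 4.10% of probe sets over the array did not overlap. The Yaa samples were split: Yaa 3 was the highest array for 7 of 7 genes, at 0.88 to 1.46 above the wild-type mean. Over the array Yaa 3 was highest for 35.6% of tested genes. As deposited, with no normalization, Yaa 3 was still highest for 6 of the 7, although its array was the dimmest of the series. Its margin over the next array was smaller there than after normalization for each of the 6. The signals ran from 1015 against 936 in wild type 2 for Cd5l to 2258 against 1503 in wild type 2 for Vcam1. The size of the excess of Yaa 3 thus depends on the scaling.

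**Figure D1:**
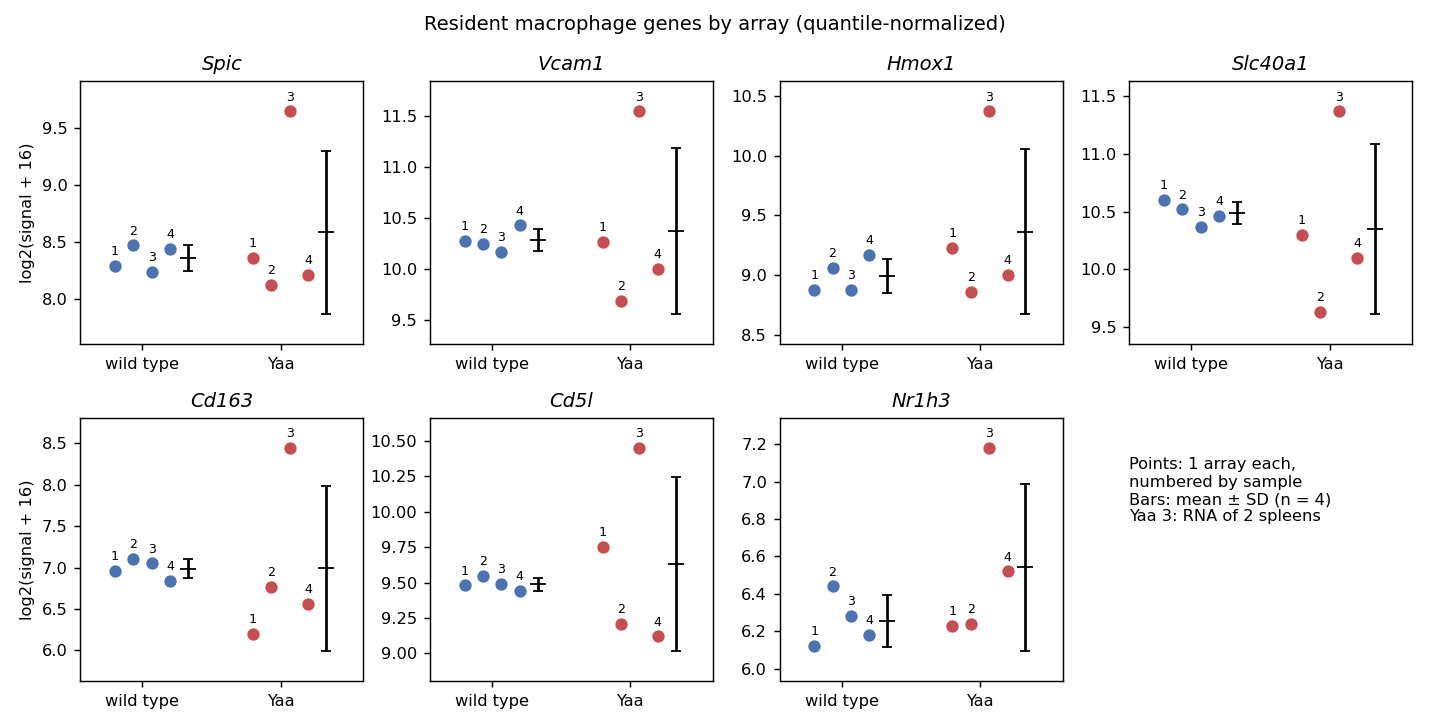
log2(signal + 16) of the 7 tested genes in each array, wild type in blue and Yaa in red, with points numbered by sample and bars for the mean ± SD (n = 4). The 4 wild-type arrays lie close together in each panel, and Yaa 3 lies above all other arrays in each.

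Spic, the transcription factor of the red pulp lineage, stood at 8.29, 8.47, 8.24 and 8.44 in wild type 1 to 4 and at 8.36, 8.12, 9.65 and 8.21 in Yaa 1 to 4. Only Yaa 3 left the wild-type range upwards, while Yaa 2 and Yaa 4 lay just under it. The wild-type mean was 8.36 ± 0.11 (SD, n = 4) and the Yaa mean 8.59 ± 0.71 (SD, n = 4), a difference of 0.23 ± 0.31 (SE; limma adjusted p = 0.997; 95% interval -0.48 to 0.93). The other Spic probe set, which differed by 0.09 ± 0.36 (SE), was also lowest in Yaa 2, at 7.12, and highest in Yaa 3, at 8.86. Without Yaa 3 the sign turned, to -0.13 ± 0.13 (SE) and -0.33 ± 0.14 (SE) for the 2 probe sets (limma adjusted p = 0.77 and 0.709). The sign of the brighter one also turned with array weights.

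Vcam1 encodes an adhesion molecule that red pulp macrophages carry and that endothelium and stroma can carry as well. Its brightest probe set read 10.28, 10.25, 10.17 and 10.43 in wild type and 10.27, 9.69, 11.55 and 10 in Yaa. Yaa 1 was within the wild-type range, Yaa 2 and Yaa 4 were under it and Yaa 3 was over it. The difference was 0.10 ± 0.35 (SE; limma adjusted p = 0.997; 95% interval -0.69 to 0.88), and both other probe sets gave 0.23 ± 0.31 and 0.21 ± 0.34 (SE). All 3 probe sets were lowest in Yaa 2 and highest in Yaa 3, the brightest by a factor of 3.63 between these 2 arrays on the scale of signal + 16. Without Yaa 3 it differed by -0.29 ± 0.15 (SE; limma adjusted p = 0.714), and its sign also turned with the values as deposited and with array weights. With array weights the other 2 probe sets stayed at 0.16 and 0.10, and without Yaa 2 and Yaa 3 together at 0.14 and 0.094, so the 3 did not share a sign there. Of 8 tested stromal and endothelial markers, 7 were highest in Yaa 3 as well, and their mean was 7.32 there, against 6.39 to 6.74 in the other 7 arrays. The exception was Pecam1, an adhesion molecule of endothelium, which was lowest in Yaa 3, at 7.30 against 7.97 to 9.02. Stab2, a scavenger receptor of sinus endothelium, read 9.18 in Yaa 3 and 7.12 to 7.81 elsewhere; both genes were picked once their values had been seen. The part of endothelium or stroma in the Vcam1 signal was not tested.

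Hmox1 is the haem-degrading step itself. Wild-type arrays read 8.88, 9.06, 8.88 and 9.17, and Yaa arrays 9.23, 8.86, 10.37 and 9.0. Yaa 3 stood well above the wild-type range, Yaa 1 just above it, Yaa 2 just under it and Yaa 4 within it. Its difference, 0.37 ± 0.30 (SE; limma adjusted p = 0.997; 95% interval -0.32 to 1.06), was the largest of the 7, and was 0.034 ± 0.14 (SE) without Yaa 3.

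Slc40a1 encodes ferroportin, the only known iron exporter of mammalian cells. The brighter of its 2 probe sets was at 10.60, 10.52, 10.37 and 10.46 in wild type and at 10.30, 9.63, 11.37 and 10.10 in Yaa. Yaa 1, Yaa 2 and Yaa 4 were each below all 4 wild-type arrays, and Yaa 3 was above all of them. With all arrays the difference was -0.14 ± 0.32 (SE; limma adjusted p = 0.997; 95% interval -0.85 to 0.58). Without Yaa 3 it was -0.48 ± 0.16 (SE; limma unadjusted p = 0.017, adjusted p = 0.609), without Yaa 2 it was 0.10 ± 0.26 (SE), and without both it was -0.29 ± 0.11 (SE; adjusted p = 0.44). The dimmer probe set did not share this: it read 9.72 to 9.99 in wild type and 9.85, 8.71, 10.85 and 9.90 in Yaa, so that only Yaa 2 was low. Without Yaa 2 and Yaa 3 together the 2 probe sets had opposite signs, the dimmer one at 0.04 ± 0.11 (SE).

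Cd163 encodes the receptor through which macrophages clear haemoglobin bound to haptoglobin. It was at 6.96, 7.10, 7.05 and 6.84 in wild type and at 6.20, 6.77, 8.44 and 6.56 in Yaa. As for the brighter Slc40a1 probe set, Yaa 1, Yaa 2 and Yaa 4 were below every wild-type array and Yaa 3 above them, but here Yaa 1 and not Yaa 2 was lowest. The means of 6.99 ± 0.12 (SD, n = 4) and 6.99 ± 1.0 (SD, n = 4) differed by 0.01 ± 0.42 (SE; limma adjusted p = 1; 95% interval -0.95 to 0.96). Without Yaa 3 the difference was -0.48 ± 0.16 (SE; limma unadjusted p = 0.0169, adjusted p = 0.609), without Yaa 2 and Yaa 3 it was -0.62 ± 0.17 (SE; unadjusted p = 0.0035, adjusted p = 0.211), and with array weights -0.52 ± 0.23 (SE; adjusted p = 0.418). Without Yaa 3, and without both, Cd163 and Slc40a1 were the 2 of 7 genes whose groups did not overlap, both lower in Yaa, and the dimmer Spic probe set was lower without overlap too. Over the array 4.11% of probe sets were lower without overlap when Yaa 3 was left out, and 9.38% when Yaa 2 and Yaa 3 were. The same 2 of 7 genes had an unadjusted p under 0.05 in each of these fits, beside 6.95% and 8.85% of all probe sets. At an adjusted p under 0.05 limma called 0 of the 7 without Yaa 3, without both and with array weights, where it called 0.00%, 0.466% and 0.635% of all probe sets.

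**Figure D2:**
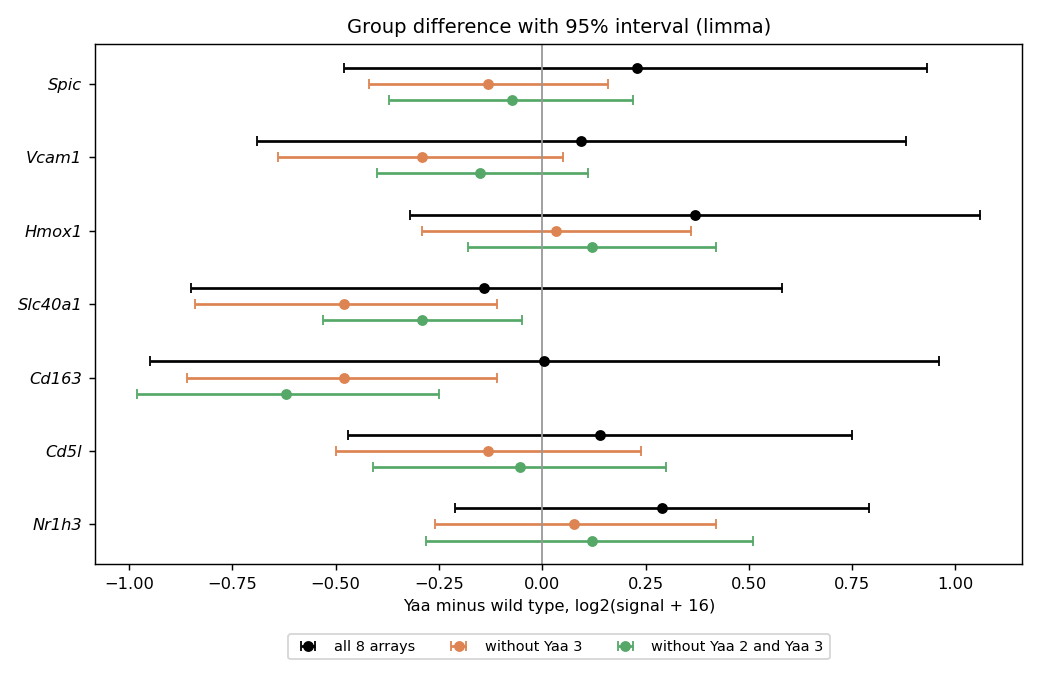
Yaa minus wild type for the 7 tested genes on the log2(signal + 16) scale, with limma's 95% intervals, for all 8 arrays (black), without Yaa 3 (orange) and without Yaa 2 and Yaa 3 (green). With all arrays every interval spans 0, and without Yaa 3 those of Slc40a1 and Cd163 lie below 0, with adjusted p = 0.609 for each.

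Of the genes shared between macrophage types, Cd5l encodes a secreted scavenger-receptor protein that protects macrophages from cell death. It read 9.48, 9.55, 9.49 and 9.44 in wild type, the tightest group of the 7 genes, with an SD of 0.05. The Yaa arrays read 9.75, 9.21, 10.45 and 9.12, none of them within the wild-type range, with 2 above it and 2 below. Its difference was 0.14 ± 0.27 (SE; limma adjusted p = 0.997; 95% interval -0.47 to 0.75), and it was -0.13 ± 0.16 (SE) without Yaa 3 and -0.066 with the values as deposited.

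Nr1h3 encodes LXR alpha, a sterol-sensing nuclear receptor needed for macrophages of the marginal zone. Wild-type values were 6.12, 6.44, 6.28 and 6.18, and Yaa values 6.23, 6.24, 7.18 and 6.52. Yaa 3 and Yaa 4 were above the wild-type range and the other 2 within it. The difference was 0.29 ± 0.22 (SE; limma adjusted p = 0.997; 95% interval -0.21 to 0.79) and 0.077 ± 0.15 (SE) without Yaa 3. Genes that LXR partners with or controls were mixed in Yaa 3, which was the highest array for 4 of the 11 tested and the lowest for 2. Their mean was 8.84 there and 8.75 to 9.10 in the other arrays, and it includes Scd1, a fatty acid desaturase chosen here after its values were seen, at 7.63 in Yaa 3 and 10.93 to 12.08 elsewhere. Of these 11, 5 had higher and 6 lower means in Yaa, limma called 0, 0 had an unadjusted p under 0.05, and the median difference was -0.03. The 3 with the smallest p were Pltp, a phospholipid transfer protein, at 0.31 ± 0.19 (SE), Mylip, which degrades the LDL receptor, at -0.19 ± 0.13 (SE), and Apoe, a lipid carrier, at 0.22 ± 0.16 (SE; limma adjusted p = 0.997 for each).

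The spread within Yaa exceeded that within wild type for each of the 7 genes. The SD was 0.05 to 0.15 in wild type and 0.45 to 1.0 in Yaa, a ratio of 3.17 for Nr1h3 and up to 13.6 for Cd5l, and this ratio was not tested. Yaa 3 exceeded Yaa 2 by 1.92-fold for Nr1h3, 2.86-fold for Hmox1, 2.88-fold for Spic, 3.19-fold for Cd163 and 3.34-fold for Slc40a1 on the scale of signal + 16. In 4 of the 7 genes, Spic, Vcam1, Hmox1 and Slc40a1, Yaa 2 was the lowest and Yaa 3 the highest array, a pattern that 18.4% of tested genes had.

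The markers of the marginal zone and metallophilic macrophages were not well measured. All 7 probe sets of Siglec1, Marco and Cd209b fell below the filter, so these 3 genes have values but no test. Only 3 of their 56 values exceeded the median signal of their array, and these medians ran from 21.1 to 33.7. Siglec1 and Cd209b stayed at or below the percentile 47.6 and 35.6 of the probe sets of an array, while the brighter Marco probe set stood between percentile 25.8 and 53.9 in wild type, at 14.9 to 20.1 in Yaa 1, Yaa 2 and Yaa 4 and at 54.5 in Yaa 3.

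**Figure D3:**
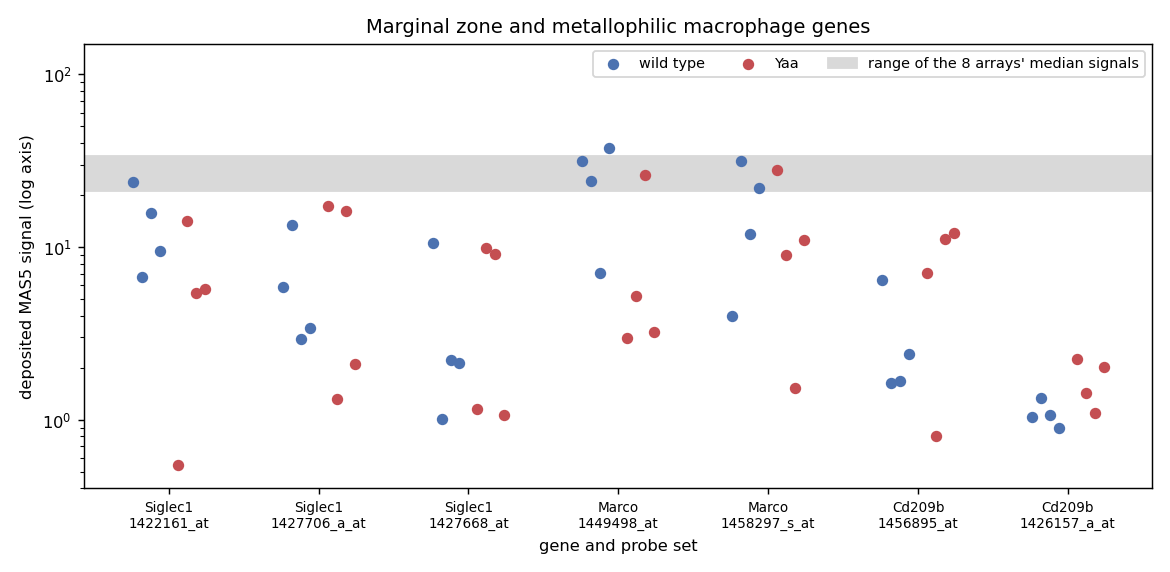
Deposited signals (log axis) of the 7 probe sets of Siglec1, Marco and Cd209b, wild type in blue and Yaa in red, beside the range of the 8 arrays' median signals (grey band). Most values lie under the band, and only 3 of 56 exceeded the median of their own array.

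Marco, a scavenger receptor for bacteria, had the brightest of these probe sets, with deposited signals of 31.5, 24.1, 7.06 and 37.7 in wild type and 2.98, 5.2, 26.2 and 3.23 in Yaa. Yaa 1, Yaa 2 and Yaa 4 were below every wild-type array and Yaa 3 was among them, but the other Marco probe set was highest in wild type 2 and lowest in Yaa 3. With no filter on low signals the brighter one differed by -0.60 ± 0.37 (SE; limma adjusted p = 0.989). Siglec1 encodes sialoadhesin, which binds sialic acid on passing particles; its 3 probe sets ran from 0.55 to 23.7 over all arrays, and the brightest differed by -0.39 ± 0.24 (SE; adjusted p = 0.989). Cd209b encodes SIGN-R1, a lectin for microbial sugars; its 2 probe sets reached 12 at most, and the brighter one differed by 0.34 ± 0.19 (SE; adjusted p = 0.989). The dimmer one was the 1 of 18 member probe sets whose groups did not overlap after normalization, with means 0.06 apart on the log2 scale; its deposited signals, 0.892 to 1.34 in wild type and 1.1 to 2.25 in Yaa, overlapped. Madcam1, which marks the lining of the marginal sinus, was below the filter too, at 1 to 21.4.

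Other genes of iron and haem handling were read from a list of 28, of which 26 had a probe set and 22 were tested. limma called 0 of the 22, 14 having higher and 8 lower means in Yaa, with a median difference of 0.06. Beside 4.73% of probe sets over the array, 2 had an unadjusted p under 0.05, both higher. These were Hp and Lcn2. Hp, which encodes the haptoglobin that Cd163 binds with its cargo, stood at 7.02, 6.62, 6.84 and 6.59 in wild type and at 8.90, 7.47, 8.77 and 7.78 in Yaa. Every Yaa array was above every wild-type array, and the difference was 1.46 ± 0.32 (SE; limma adjusted p = 0.522, and 0.0116 with array weights). Lcn2, lipocalin that holds bacterial iron carriers, stood at 8.88, 8.23, 8.00 and 8.02 in wild type and at 11.93, 8.52, 10.62 and 10.48 in Yaa. Yaa 2 lay within the wild-type range and the other 3 above it, with a difference of 2.11 ± 0.61 (SE; limma adjusted p = 0.807, and 0.00837 with array weights). In the fit with array weights Yaa 2 and Yaa 3 had a weight of 0.22 each and the other arrays 0.84 to 2.73. With Yaa 2 counted so little, the difference there was 3.04 for Lcn2 and 1.77 for Hp. Neutrophils make both proteins, and neutrophil markers had the same order among the Yaa arrays: the mean of 11 tested genes was 10.59 in Yaa 1, 10.21 in Yaa 3, 9.55 in Yaa 4 and 8.35 in Yaa 2, against 7.96 to 8.69 in wild type. Their part in the readings of Hp and Lcn2 was not tested.

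Bach1, the haem-sensing repressor of Hmox1, was the third by p, at 9.38 to 9.64 in wild type and 9.60 to 9.99 in Yaa, a difference of 0.28 ± 0.13 (SE; limma adjusted p = 0.997). Yaa 2 was the lowest array for 12 of the 22 genes, and Yaa 3 the highest for 14, 9 genes having both. Among these was Slc48a1, a haem transporter of the phagosome, at 8.28 in Yaa 2, 10.42 in Yaa 3 and 9.52 to 9.93 in the other arrays. Blvrb, a biliverdin reductase also abundant in red cells, read 11.03 in Yaa 2 and 12.34 to 12.70 elsewhere. Both were chosen after their values were seen. Several genes of this list are active in maturing red cells, whose markers were likewise lowest in Yaa 2, and the part of these cells was not tested.

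**Figure D4:**
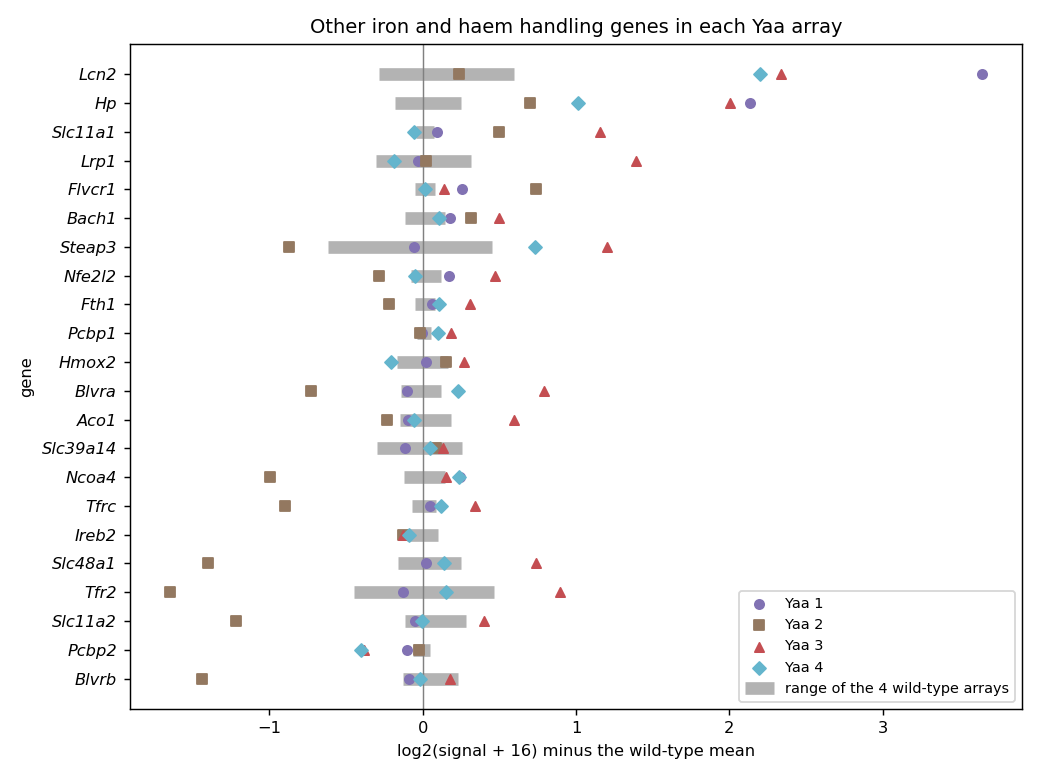
The 22 tested iron and haem handling genes outside the member list, with each Yaa array's log2(signal + 16) minus the wild-type mean and the range of the 4 wild-type arrays as a grey bar. Lcn2 and Hp lie to the right for Yaa 1, Yaa 3 and Yaa 4, and Yaa 2 lies to the left for 12 genes where it was the lowest array.

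By their mean, general macrophage genes shared the high reading of Yaa 3 but not the low one of Yaa 2. The mean over 20 tested genes of another list of splenic macrophage genes was 9.25 in Yaa 3 and 8.51 in Yaa 2, and 8.13 to 8.38 in the other 6 arrays. The 5 red pulp members averaged 10.28 in Yaa 3, 8.62 in Yaa 2 and 8.78 to 9.08 in the others. Yaa 3 was the highest array for 17 of the 20 genes, and Yaa 2 the lowest for 2, Mrc1 and Axl. Id3 and Irf8 were highest in Yaa 2 and lowest in Yaa 3, and they raised the Yaa 2 mean of the list. They read 9.35 and 11.34 in Yaa 2, with wild-type means of 7.45 and 10.64. These genes were picked once their values had been seen. The difference between both lists in Yaa 2 was not tested. In Yaa 18 of the 20 had a higher mean, with a median difference of 0.32. limma called 0, and beside 4.73% of probe sets over the array 1 had an unadjusted p under 0.05. That was C1qa, a subunit of the first complement component made by macrophages, at 9.25 to 9.31 in wild type and at 9.77, 10.03, 11.11 and 9.58 in Yaa. Each Yaa array exceeded each wild-type array, with a difference of 0.85 ± 0.29 (SE; limma adjusted p = 0.971), which was 0.52 without Yaa 3. The partner subunits C1qb and C1qc did not share this separation, and their groups overlapped. They differed by 0.45 ± 0.29 and 0.37 ± 0.31 (SE, limma adjusted p = 0.997 for both), and both were named after their values were seen. Csf1r had 0.49 ± 0.29 (SE) and Maf, a macrophage transcription factor, 0.42 ± 0.20 (SE; adjusted p = 0.997 for both), and without Yaa 3 they had 0.19 and 0.26. The median difference of the list was 0.01 without Yaa 3, -0.04 without Yaa 2 and Yaa 3, and 0.05 with array weights.

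**Figure D5:**
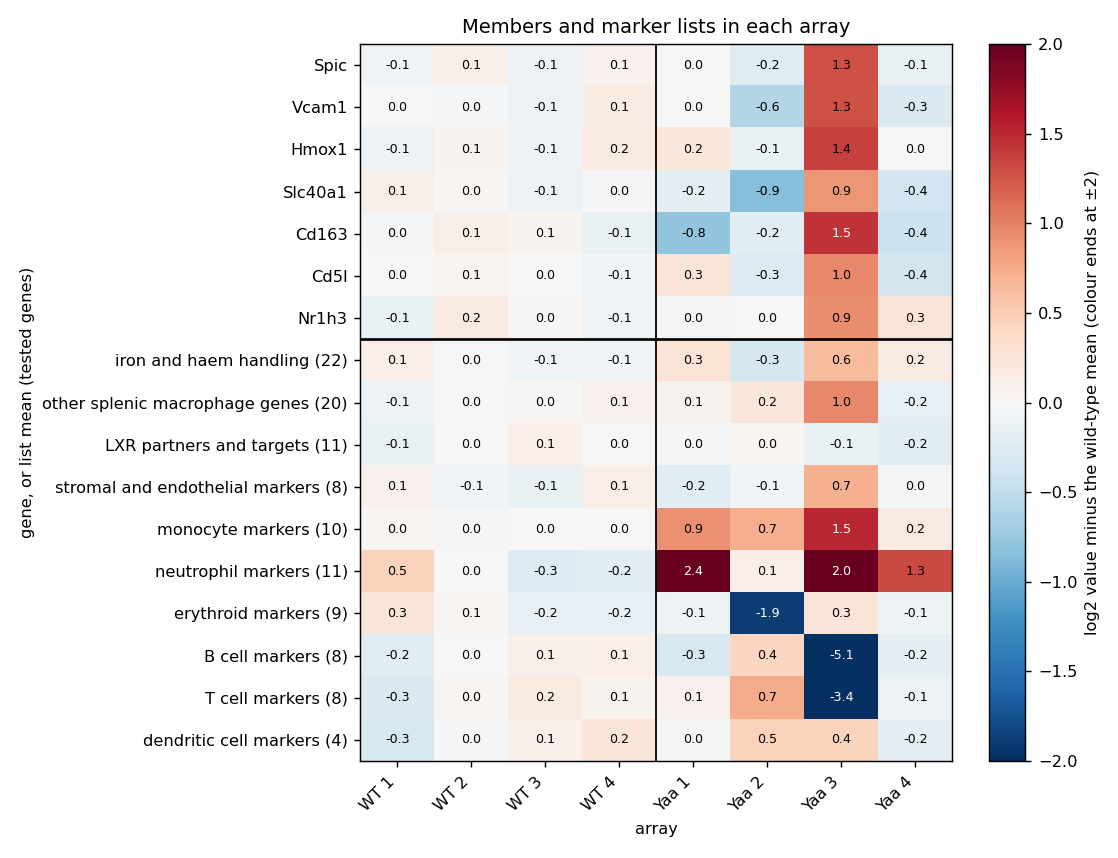
Each array's log2 value minus the wild-type mean, for the 7 tested genes and for the mean of each marker list (number of tested genes in brackets); colours end at ±2 and the numbers give the value. In Yaa 3 the member genes stand 0.88 to 1.46 above wild type beside B and T cell lists at -5.06 and -3.36.

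The mean of the monocyte markers was higher in each Yaa array than in each wild-type array, though only slightly in Yaa 4. The mean over 10 tested genes was 8.26 to 8.33 in wild type and 9.21, 9.03, 9.80 and 8.47 in Yaa. For 5 of the 10, each Yaa array exceeded each wild-type array, where 4.10% of probe sets over the array did not overlap in either direction. Fn1, Cx3cr1 and S100a4 were lowest in Yaa 4, while Chil3 read 9.90 there and 8.26 to 9.06 in wild type. These genes were picked once their values had been seen. The small excess of the Yaa 4 mean rests largely on Chil3, which had the order of the neutrophil markers among the Yaa arrays. Neutrophil markers also had a higher mean in Yaa 1, Yaa 3 and Yaa 4 than in wild type, and their part in these readings was not tested. Among the monocyte genes Lyz2 and Lyz1, the lysozymes, had differences of 0.98 ± 0.19 and 0.68 ± 0.17 (SE), and the Fc receptor Fcgr4 of 0.84 ± 0.20 (SE; limma adjusted p = 0.412, 0.611 and 0.568). Both lysozymes had the same order among the Yaa arrays, and whether they give separate readings was not tested. limma called 0 of the 10, with 6 at an unadjusted p under 0.05, beside 4.73% of probe sets over the array. Yaa 2 was above every wild-type array for the monocyte mean, and at or below the wild-type mean for each of the 7 members.

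Across the 8 arrays the genes whose readings most resembled those of Spic were Fabp4, a fatty acid carrier, Uxt, Mrc1, the mannose receptor of macrophages, Car9, a carbonic anhydrase, and Axl, a receptor for dying cells, each with a Pearson correlation of 0.99. Without Yaa 3 the correlations over 7 arrays were 0.92, 0.94, 0.87, 0.87 and 0.70, and without Yaa 2 as well, over 6 arrays, 0.86, 0.94, 0.76, 0.81 and 0.39. Among the members, Hmox1 and Vcam1 had 0.98 and 0.97 with Spic over 8 arrays and 0.72 and 0.85 without Yaa 3. For Cd163 and Nr1h3 the values were 0.88 and 0.89, and 0.12 and -0.04 without Yaa 3. The 8 arrays share scaling and cell mixture, and these values are a description.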

How the data were processed

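Per the submitters' processing notes, the authors computed MAS5 signals, and the deposited table holds them as linear intensity values; version, scaling target and filters: not given in the sources used here. Of its 45101 probe sets, 64 were array controls. Trimmed mean signals (2% left out at each side) ran from 106.9 to 193.1, more than 10% from their median, so arrays were quantile normalized and taken as log2(signal + 16). Controls and probe sets at or below the median mean signal were left out, leaving 22518. The groups were compared with limma 3.58.1 (R 4.3.3; lmFit, eBayes with trend) and Benjamini-Hochberg adjustment over all tested probe sets at 0.05. The fit was also run on simulated data. These held no outlying arrays such as Yaa 2 and Yaa 3, so that run does not vouch for the fit here. The number of arrays, 4 per group, limits the precision. Symbols were updated through Entrez IDs to GRCm38.p6 for 34741 of 34945 probe sets with 1 symbol; 932 annotated probe sets listed several symbols and were not named. The member genes and all lists were chosen with earlier results of these data known. Named are all members and the 5 genes most like Spic. At most 3 genes with the smallest p are named of the iron, other macrophage, LXR and monocyte lists. Other cell type lists are given by their means, a limit set after results were seen. Casp9 is named as the only call over the array, and Adgre1 and Madcam1 were named outside these rules. The others are marked as chosen after their values were seen. Same-numbered samples did not deviate together (correlations of deviations from group means -0.367 to 0.016), so replicate numbers were not used to pair samples. Alternatives were other pseudocounts, filters, scalings and variance models, array weights, a replicate block and samples left out. The array weights were lowest for Yaa 2 and Yaa 3, at 0.22 each, so that fit comes close to leaving both out. Plots used matplotlib 3.10.9 (Python 3.11.15).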

Additional observations from a re-analysis of the deposited data

Results flagged for a closer look

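The results below have a sample whose gap to its neighbour took up more of the range of its group of 4 than Dixon's 95% critical value allows. Of 74 groups looked at, 8 had such a sample. Chance gives this in about 1 in 20 groups, but the 8 cannot be read against that share. Stab2 and Blvrb were chosen after their values were seen, and the red pulp mean contains Spic. Yaa 3 was the high sample for Spic, at 9.65 with the next Yaa array at 8.36, and for the mean of the 5 red pulp members, at 10.28 with the next at 8.87. It was also high for Marco, on a probe set below the filter, at 5.71 with the next at 4.37, where wild type ran from 4.57 to 5.67. Stab2, of sinus endothelium, was at 9.18 in Yaa 3 with the next at 7.35. The mean of the B cell markers was low in Yaa 3, at 5.36 with the next at 10.10. Yaa 2 was the low sample for Blvrb, at 11.03 with the next at 12.38, and for the mean of the erythroid markers, at 9.89 with the next at 11.69. In wild type the 1 such case was Apoe, at 9.18 in wild type 1 with the next at 9.71.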

How the results depend on the processing

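limma called 0 member genes in all 27 alternative fits. Of 7 genes, Hmox1 and Nr1h3 kept the sign of their difference in every fit that tested them (0.034 to 0.54 and 0.077 to 0.39). Spic turned to -0.014 with array weights and to -0.074 without Yaa 2 and Yaa 3; Vcam1 to -0.088 as deposited, -0.062 with array weights and -0.15 without both; Cd5l to -0.066 as deposited and -0.054 without both. Cd163, near 0 with all arrays, turned to -0.026 with log2(signal + 1), -0.20 as deposited, -0.067 with median-centred arrays, -0.52 with array weights and -0.62 without both. With single samples left out the differences ran from -0.13 to 0.38 for Spic, -0.29 to 0.32 for Vcam1, -0.13 to 0.31 for Cd5l, -0.48 to 0.27 for Cd163 and -0.48 to 0.10 for Slc40a1, with Cd163 at -0.0045 and -0.041 without wild type 1 and wild type 4. As deposited, the median of all probe sets moved to -0.20, and relative to it Vcam1 and Cd5l lay above the median and Cd163 at it. The causes were not tested. With array weights 143 probe sets were called over the array, without Yaa 2 and Yaa 3 together 105, and 0 with log2(signal + 1), with a filter at the upper quartile of signal, where Cd163 and Nr1h3 were not tested, and with the replicate block; single samples left out gave 0 to 31, the most without Yaa 2. limma listed 1032, 485 and 731 probe sets at an unadjusted p under 0.05 in those 3 fits with 0 calls. Iron and haem genes called were 2 with array weights, 2 without Yaa 2 and Yaa 3 and 0 to 1 with single samples left out (1 without Yaa 2); monocyte markers 4, 1 and 0 to 1 (1 without Yaa 4); neutrophil markers 9, 9 and 0 to 7 (7 without Yaa 2). The replicate block left the Slc40a1 difference at -0.14 and changed no member call; same-numbered samples share only a number. Depth cannot be read from MAS5 signals; signals below the filter limit Siglec1, Marco and Cd209b.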
